A study of Rattus norvegicus with 69 samples.

Results

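The cytosolic ribosomal proteins were followed as the genes whose symbol on the array annotation begins with Rpl or Rps and a number, or is an Rplp symbol or Rpsa, with the S6 kinases (Rps6k) left out. The rule found 44 of the 4737 genes that have a probe set with 1 symbol, 30 of the large subunit and 14 of the small subunit, carried by 64 probe sets. The probe set with the highest mean log2 signal over all arrays stood for each gene, which mattered for the 17 members with more than 1 probe set. Of the 44 members, 41 (27 large, 14 small) passed the filter on low signals and were tested among 2697 genes. The 3 members below that filter were Rpl30, Rpl5 and Rplp1l3, with mean log2 signals of 8.52, 6.96 and 4.45 against the lowest tested mean of 8.78. The remaining members lay between 8.97 and 15.62, but probe sets bind with different strength, so the order of these signals is not an order of mRNA levels.

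RNA from the CA1 region of the hippocampus of male F344 rats aged 3 to 5 months was hybridised to Affymetrix RGU34A arrays, 1 array per animal and 69 in all. Home cage rats (HC) numbered 5 in cohort 1 and 12 in cohort 2. Sleep-deprived rats spent 24 h (24SD, 8 and 8) or 72 h (72SD, 8 and 12) with a cage mate on small platforms over water. Rats under the stress of an unfamiliar environment (NES) stayed in the same kind of chamber for 24 h (24NES, 10) or 72 h (72NES, 6) with a grid over the platforms that left them free to sleep, and all of these belonged to cohort 1. The HC and SD rats of cohort 1 had been trained on an active avoidance task before deprivation, and the NES rats are not named among the trained animals. Which rats shared a chamber is not given in the labels, so p-values here treat cage mates as independent. The tissue was bulk CA1, in which fewer cells of a type and less RNA per cell cannot be told apart. Of 10 genes listed as markers of CA1 pyramidal neurons, 7 had a probe set with 1 symbol, and all 7 lay above the filter.

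Ribosomal proteins wrap the ribosomal RNAs into a small subunit, which reads the codons, and a large subunit, which joins the amino acids. Their genes are among the most highly expressed in any cell. Most vertebrate ribosomal protein mRNAs begin with a C followed by an unbroken run of pyrimidines, the 5′ terminal oligopyrimidine (TOP) tract, through which mTOR signalling sets how much of the mRNA is translated. In neurons, these mRNAs are found in dendrites and axons as well as in the cell body. The genes have many processed pseudogenes and near-identical copies, so a probe set for one of them may also bind transcripts of another.

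RefSeq start windows (GRCr8 build, 250 bases before to 50 bases after the annotated start) were at hand for 37 of the 44 members. The windows below are those of members that the results turn on or that carry a long tract. Each shows 5 bases before the annotated start and 25 from it on, and capitals mark an unbroken pyrimidine run that begins with C at the annotated start.
Rpl14, chr8:129163615-129163644, plus strand: tctccCTTCTCgctgagcgccgccaacatg
Rpl35a, chr11:81234997-81235026, minus strand: ccttcCTCTTTCCgccatcttggcgtcttt
Rps15, chr7:10068091-10068120, minus strand: gcttcCTTTTCCCagcagccgccaagatgg
Rpl31, chr9:49143106-49143135, plus strand: tcgcgCCTTTCCTTTCCaacttgggcccgg
Rpl19, chr10:83519059-83519088, plus strand: aagctCTTTCCTTTCgctgctgcgtctgca
Rpl18, chr1:105325265-105325294, plus strand: gtctagcaggaggcgccatcatggtaagcg
Rpl7a, chr3:30637131-30637160, plus strand: gccgagcaagatggtgagtgattatgggtc

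A C at the start followed by at least 4 pyrimidines was found in 11 of the 37 members (29.7%) and in 2.63% of all 33469 windows. Among members it was found in 9 of 27 large and 2 of 10 small subunit genes. Rpl14, Rpl35a and Rps15 carried such a tract, and Rpl18 and Rpl7a did not at the start annotated here. A run of a C and at least 6 pyrimidines lay within 20 bases of the start in 67.6% of members and 17.6% of all windows, so many tracts sit a few bases from the annotated position. The letters CCGGAAG, on either strand anywhere in the window, were in 24.3% of members against 8.75% of all windows, and AAGATGG was in 21.6% against 7.01%. The letters AAGATGG can span the start codon, and CTTCCGG, the reverse complement of CCGGAAG, can overlap the pyrimidine run. These matches describe letters only and say nothing of what binds there.

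Of the whole array set, the trimmed mean signal was 1502 on every array, the scale the deposited values had been set to. The array median signal ranged from 400.5 to 484.9. The 3′ to 5′ signal ratio of the GAPDH control probes lay between 0.92 and 1.26, and that of the β actin control probes between 0.90 and 1.76. The β actin ratio was under 1.1 on 8 of 69 arrays, of which 3 were HC arrays of cohort 2 and 1 was an HC array of cohort 1. A higher ratio is more signal at the 3′ end relative to the 5′ end. Arrays under 1.1 are thus those with the least 3′ excess, and a low ratio does not mark them as poor RNA. The mean β actin ratio was 1.30 ± 0.20 (SD, n = 12) in HC and 1.40 ± 0.15 (SD, n = 8) in 24SD of cohort 2, and 1.21 ± 0.19 (SD, n = 5) and 1.32 ± 0.15 (SD, n = 8) in cohort 1. It was thus higher on average in 24SD than in HC in both cohorts, and the relation of the members to this ratio is given further on.

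After 24 h of sleep deprivation, most ribosomal protein mRNAs averaged slightly above HC. The difference between 24SD and HC was above 0 for 36 of the 41 members, with a median of 0.10 on the log2 scale, against 45.1% of all genes tested and a median of -0.02. At an unadjusted p of at most 0.05, 8 members differed, every one of them higher in 24SD. The share of all genes tested that passed in either direction was 19.2%, and 7.6% passed as higher, while 19.5% of the members passed. No member passed an adjusted p under 0.05, which 1.45% of all genes did, and the smallest adjusted p of a member was 0.0953 (limma). The differences were small and close in size across members, from -0.08 to 0.24.

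The clearest differences were in large subunit proteins that were singled out for this account. Rpl14, a protein of the outer face of the large subunit, had log2 signals of 11.64, 11.55, 11.56, 11.62 and 11.64 on the 5 HC arrays of cohort 1. Its 24SD arrays of cohort 1 had a lowest, median and highest signal of 11.22, 11.75 and 11.87. In cohort 2 the HC arrays ran over 11.60, 11.83 and 12.02, and the 24SD arrays over 11.94, 12.05 and 12.13. The groups overlapped in both cohorts, and 14 of 16 24SD arrays lay above the HC mean of their cohort. The difference was 0.16 ± 0.052 (SE), with p = 0.00389 and adjusted p = 0.0953.

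Rpl18 belongs to the large subunit as well, and its HC arrays of cohort 1 read 12.38, 12.35, 12.61, 12.33 and 12.53. The 24SD arrays of that cohort had a lowest, median and highest value of 12.29, 12.47 and 12.93. In cohort 2 these were 12.36, 12.60 and 12.73 for HC and 12.51, 12.76 and 12.88 for 24SD. The ranges overlapped in both cohorts, and 12 of 16 24SD arrays lay above the HC mean of their cohort. The difference was 0.15 ± 0.053 (SE), with p = 0.00674 and adjusted p = 0.114.

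Rpl7a, a large subunit protein that binds ribosomal RNA, read 13.22, 13.27, 12.64, 13.20 and 12.99 on the HC arrays of cohort 1. The 24SD arrays of that cohort ran over 12.93, 13.30 and 13.49 as lowest, median and highest. In cohort 2 the HC arrays spread over 12.48, 13.12 and 13.43, and the 24SD arrays over 12.98, 13.21 and 13.37. The low end of HC was 1 array in cohort 1 and a wide lower range in cohort 2, where the highest HC array lay above the highest 24SD array. The difference was 0.18 ± 0.072 (SE), with p = 0.0153 and adjusted p = 0.164, and 14 of 16 24SD arrays lay above the HC mean of their cohort.

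The other 5 members at an unadjusted p of at most 0.05 showed the same pattern of shifted but overlapping groups. Rpl26, which sits at the mouth of the tunnel through which the new peptide leaves, differed by 0.17 ± 0.068 (SE), p = 0.0179. Rpl35a, one of the genes mutated in Diamond-Blackfan anaemia, differed by 0.14 ± 0.059, p = 0.0186, and its HC arrays of cohort 2 spread from 12.57 to 13.30 while the 24SD arrays stayed between 13.18 and 13.35. Rpl24, which reaches towards the small subunit, differed by 0.12 ± 0.049, p = 0.0216. Rpl36 differed by 0.11 ± 0.054, p = 0.0393, and 10 of its 16 24SD arrays were above the HC mean of their cohort. Rps15, a decoding site protein and the only small subunit member of the 8, differed by 0.11 ± 0.049, p = 0.0238, with 14 of 16 24SD arrays above the HC mean of their cohort. In cohort 2 the HC arrays of Rps15 ran over 13.37, 13.81 and 13.99 and the 24SD arrays over 13.80, 13.87 and 14.00, so the upper ends of the groups were alike and the lower ends apart. The 2 dimmer probe sets of Rps15 did not show this difference, at -0.13 ± 0.068 (p = 0.0576) and -0.0017 ± 0.13 (p = 0.99).

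**Figure D1:**
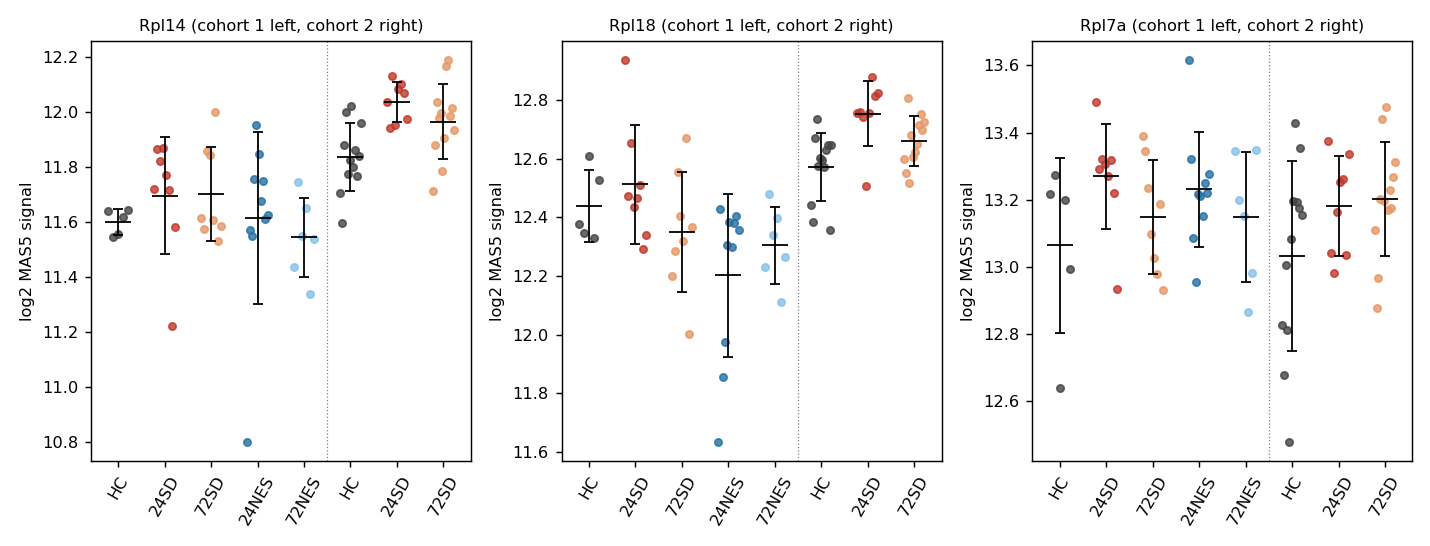
Log2 MAS5 signal of Rpl14, Rpl18 and Rpl7a on every array, by group and cohort, 1 point per rat, with a bar at each group's mean and whiskers of 1 SD. The 24SD points of Rpl14 in cohort 2 lie between 11.94 and 12.13 and overlap the upper part of the HC points (11.60 to 12.02), and 1 24NES array stands far below the others for Rpl14 (10.80).

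Several members had larger differences with larger errors. Rpl19l4 and Rpl17 differed by 0.24 ± 0.15 (SE) and 0.24 ± 0.13, Rpl39 by 0.21 ± 0.13 and Rpl4 by 0.20 ± 0.11, with p between 0.0744 and 0.113. The 5 members with a difference below 0 were Rps3a at -0.00083, Rpl3 at -0.012, Rps9 at -0.045, Rpl3l at -0.075 and the pseudogene entry Rps2-ps1 at -0.083, with p from 0.384 to 0.986. Rpl3l is a muscle paralog of Rpl3. Rps29 and Rps16, whose signals were the highest of the members with Rpl27a, differed by 0.007 ± 0.054 and 0.05 ± 0.041, and Rpl27a by 0.13 ± 0.073, p = 0.0718. Rpl21 differed by 0.034 ± 0.051, p = 0.505, at 24SD and by -0.016 ± 0.047 at 72SD, but its second of 4 probe sets gave 0.33 ± 0.10, p = 0.00249, at 24SD. Rpl23 differed by 0.099 ± 0.078, p = 0.213. Rps6, the substrate of the S6 kinases, differed by 0.022 ± 0.067, p = 0.747. Among paralogs with a suffix, Rpl36al1 differed by 0.11 ± 0.096 and Rps27l, a paralog of Rps27, by 0.10 ± 0.06, and the pseudogene entry Rps4x-ps9 by 0.16 ± 0.085, p = 0.0703. The 3 members under the filter differed by 0.28 ± 0.25 (Rpl30), -0.13 ± 0.28 (Rpl5) and 0.035 ± 0.37 (Rplp1l3), with p of 0.254, 0.638 and 0.925.

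The large subunit had a median difference of 0.11 at 24 h, with 25 of 27 members above 0 and 7 at an unadjusted p of at most 0.05, and that of the small subunit was 0.05, with 11 of 14 above 0 and 1 at that p, where 19.2% of all genes passed and 7.6% passed as higher. The difference between the subunits was seen on the arrays as the mean log2 signal of the large minus that of the small subunit. In cohort 2 it was 0.064 ± 0.115 (SD, n = 12) in HC and 0.146 ± 0.039 (SD, n = 8) in 24SD, and in cohort 1 it was 0.034 ± 0.076 (SD, n = 5) and 0.080 ± 0.042 (SD, n = 8). The ranges overlapped in both cohorts, and HC of cohort 2, from -0.14 to 0.27, enclosed the whole range of its 24SD arrays. With group and cohort means removed, this quantity moved with the β actin 3′ to 5′ ratio over the 69 arrays (r = 0.34, rho = 0.34, and r = 0.39 without the 2 arrays farthest from the median ratio), and the part of that ratio in the contrast of the subunits was not tested. Among the lists by place in the ribosome, all 8 tested exit tunnel proteins (Rpl4, Rpl17, Rpl19, Rpl22, Rpl26, Rpl31, Rpl35, Rpl39) were above 0 at 24SD with a median of 0.17, and 1 of them, Rpl26, passed the unadjusted p. All 3 tested proteins of the decoding site and mRNA path (Rps3, Rps15, Rps23) were above 0 with Rps15 passing. A short, incomplete list of 9 Diamond-Blackfan genes had 4 tested (Rpl11, Rpl35a, Rps10, Rps24), all above 0 with Rpl35a passing. The share of all genes that passed was the same 19.2%, and 45.1% of all genes were above 0. As 36 of the 41 members were above 0, the counts above 0 do not set these lists apart from the other members. The only tested stalk protein, Rplp0, differed by 0.10 ± 0.061, p = 0.098, and the only tested carrier of 5S RNA, Rpl11, by 0.048 ± 0.054, p = 0.375. The fusions with ubiquitin or ubiquitin-like proteins had no tested member.

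The values were also set out by brightness and by probe set. Among the 32 members with a mean log2 signal of at least 12 the median was 0.09, and 29 of 32 were above 0, while the 574 other genes of that brightness had a median of 0.0041 and 51% above 0. The 22 members on a plain probe set and the 19 on a probe set whose suffix marks shared or selected probes had medians of 0.11 and 0.08. There were 18 further tested probe sets of 15 members, of which 16 were above 0, with a median of 0.07, and the 2 below 0 were both of Rps15. A further 38 tested probe sets named several genes, at least 1 of them a ribosomal protein, and were outside the rule. Of these, 32 were above 0 with a median of 0.10, and 15 had an unadjusted p of at most 0.05, against 19.2% of all genes (7.6% as higher).

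After 72 h the differences from HC were smaller. The median over the members was 0.03, with 31 of 41 above 0, against 46.6% of all genes. Of the members, 3 had an unadjusted p of at most 0.05 (8.49% of all genes tested, 4.04% as higher), and no adjusted p of a member was under 0.443, while 0.0371% of all genes, 1 gene, passed 0.05. These were Rpl14 at 0.12 ± 0.049 (SE), p = 0.0149, Rps15 at 0.096 ± 0.046, p = 0.0391, and Rpl7a at 0.14 ± 0.067, p = 0.047. The Rpl14 signals at 72SD ran over 11.53, 11.61 and 12.00 in cohort 1 and over 11.71, 11.98 and 12.19 in cohort 2, overlapping the HC arrays in both cohorts, and 15 of 20 arrays lay above the HC mean of their cohort. Rpl18 was at 0.03 ± 0.05, p = 0.553, with 12 of 20 arrays above that mean. Rpl27a and Rplp0 were at 0.13 ± 0.068 and 0.093 ± 0.057, and Rpl3l was the lowest member at -0.13 ± 0.08.

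Set directly against 24SD, 72SD was lower for 38 of 41 members and for all 27 of the large subunit, with a median of -0.04, while 54.5% of all genes were higher. Rpl18 at -0.12 ± 0.051 (SE), p = 0.0214, and Rpl24 at -0.098 ± 0.047, p = 0.0419, had an unadjusted p of at most 0.05, as did 3.41% of all genes tested (1.22% as lower). The smallest adjusted p was 0.978, and no gene of the 2697 passed. Since 24SD is part of both comparisons, a high 24SD mean by itself gives a low 72SD against 24SD value, so the direction here is not a separate observation. Rps23, Rps29 and Rps9 were the 3 members not lower, at 0.011, 0.0028 and 0.015. The joint test over HC, 24SD and 72SD called 5 members at an unadjusted p of at most 0.05 (Rpl14, Rpl18, Rpl7a, Rps15 and Rpl24), all with a mean of 24SD and 72SD above HC, or 12.2% against 12.4% of all genes (5.01% as higher), and the smallest adjusted p was 0.235.

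**Figure D2:**
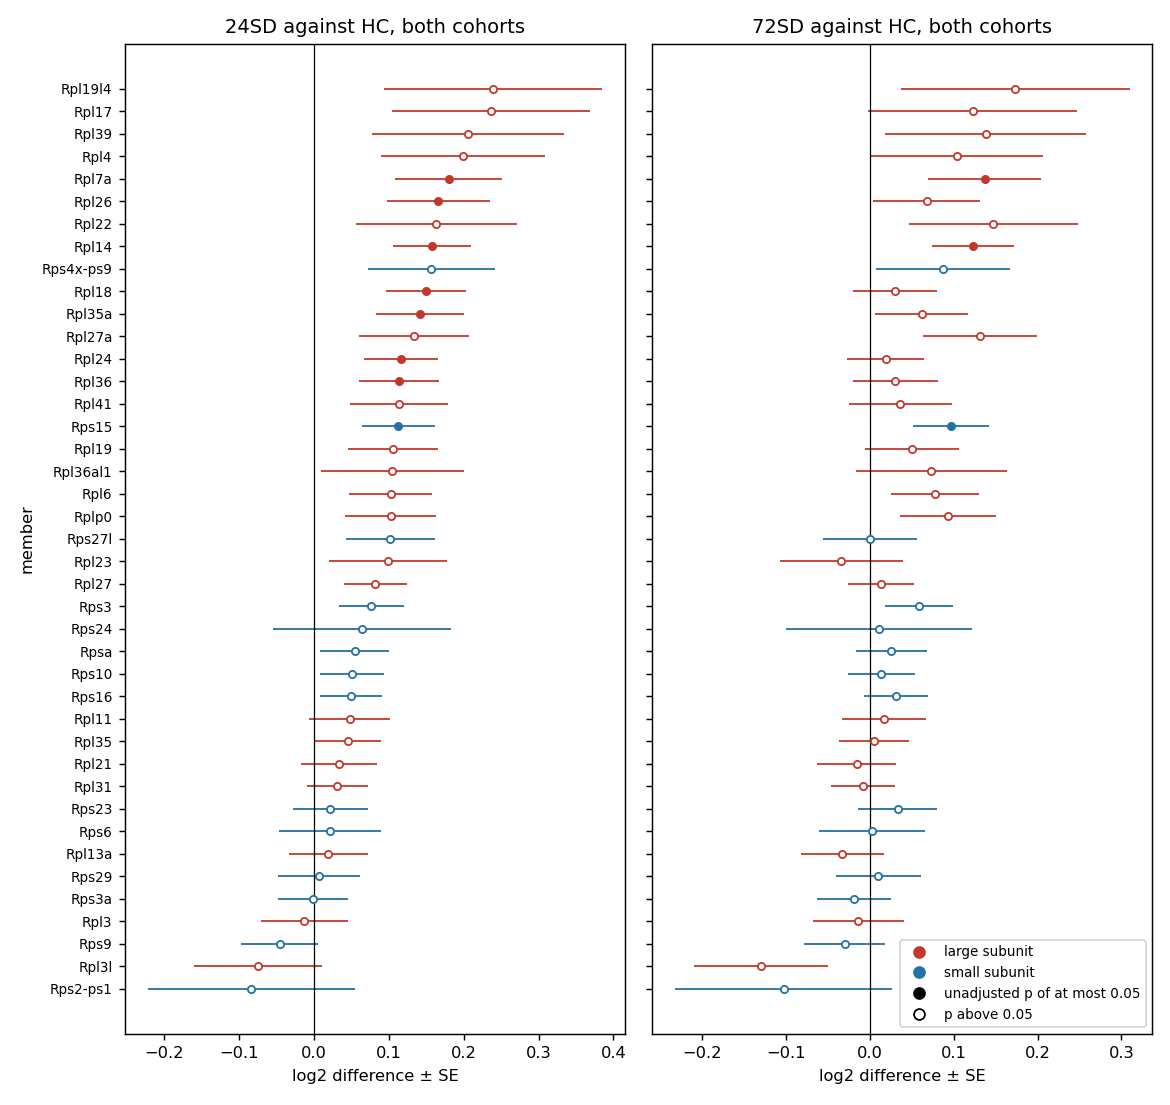
Log2 difference from HC ± SE of each of the 41 tested members after 24 h (left) and 72 h (right) of sleep deprivation, both cohorts with cohort as a term, ordered by the 24 h value; filled points have an unadjusted p of at most 0.05. At 24 h 36 members lie right of 0 and 8 are filled, and at 72 h 31 lie right of 0 and 3 are filled.

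Each cohort was then fitted alone. In cohort 1, the median 24SD difference was 0.06, with 32 of 41 members above 0 (45.8% of all genes). The members at an unadjusted p of at most 0.05 were Rpl27 at 0.22 ± 0.078 (SE), Rps27l at 0.26 ± 0.11, Rpl39 at 0.46 ± 0.2, Rpl4 at 0.35 ± 0.15 and Rpl31 at 0.18 ± 0.078, 5 in all against 14.2% of all genes (6.79% as higher), and the smallest adjusted p was 0.186. For Rpl39 and Rpl4, HC array 3 read 11.64 and 11.94, below the other 4 HC arrays (12.69 to 12.98 and 12.62 to 12.73). Its β actin ratio of 0.90 was the lowest of the 69 arrays, while its GAPDH ratio of 1.18 was the highest of the HC arrays. Without that array Rpl39 and Rpl4 differed by 0.23 ± 0.17, p = 0.19, and 0.20 ± 0.14, p = 0.163. The median of cohort 1 was 0.035 without HC array 1, with 28 of 41 above 0, and 0.085 without HC array 3. Rpl14, Rpl18 and Rpl7a were at 0.096 ± 0.1, 0.075 ± 0.11 and 0.20 ± 0.11. In cohort 2 the median was 0.10, with 34 above 0 (44.4% of all genes), and 7 members passed the unadjusted p, against 10.5% of all genes (4.15% as higher). All 7 belonged to the large subunit: Rpl14 at 0.20 ± 0.06, p = 0.00212, Rpl18 at 0.18 ± 0.055, p = 0.00228, Rpl24, Rpl17, Rpl19l4, Rpl35a and Rpl41. Their smallest adjusted p was 0.254. The large subunit median was 0.13 and the small 0.03 in cohort 2, while both were 0.06 in cohort 1.

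Rpl27 read 13.47, 13.51, 13.67, 13.31 and 13.42 on the HC arrays of cohort 1 against 13.49, 13.72 and 13.82 as lowest, median and highest of 24SD. In cohort 2 its medians were 13.84 in HC and 13.83 in 24SD. The 24SD difference of cohort 2 minus that of cohort 1 was -0.23 ± 0.082 (SE), p = 0.00813, for Rpl27 and -0.24 ± 0.08, p = 0.00475, for Rpl31, the 2 members of 41 at an unadjusted p of at most 0.05 in this interaction (8.57% of all genes, 4.75% as lower). The smallest adjusted p of a member was 0.346. For Rpl14 and Rpl18, whose p passed only in cohort 2, the interaction was 0.11 ± 0.11, p = 0.338, and 0.11 ± 0.11, p = 0.33, which does not show a difference between the cohorts. The interaction median over the members was 0.06, and 0.094 without HC array 1 of cohort 1.

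At 72 h the median was -0.02 in cohort 1, with 17 of 41 above 0 (48.2% of all genes) and 1 member, Rpl13a, lower at an unadjusted p of at most 0.05 (-0.21 ± 0.09, p = 0.032, against 9.97% of all genes, 4.34% as lower), and 0.08 in cohort 2, with 32 above 0 (46.6% of all genes). There Rps15 at 0.16 ± 0.054, p = 0.00641, Rplp0 at 0.17 ± 0.069, Rpl14 at 0.13 ± 0.054 and Rpl22 at 0.30 ± 0.13 passed the unadjusted p (7.3% of all genes, 3.11% as higher), with no adjusted p under 0.646. The interaction had 7 members at an unadjusted p of at most 0.05 against 9.57% of all genes, 5 of them higher in cohort 2 (3.34% of all genes; Rpl13a, Rps29, Rpl22, Rpl11, Rpl3) and 2 lower (6.23%; Rps27l at -0.30 ± 0.11, p = 0.00973, and Rpl27). The smallest adjusted p was 0.336. Without the arrays of a β actin ratio under 1.1, the cohort 2 median was 0.034 with no member at an unadjusted p of at most 0.05 (4.23% of all genes), and the interaction median was 0.043 in place of 0.09.

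**Figure D3:**
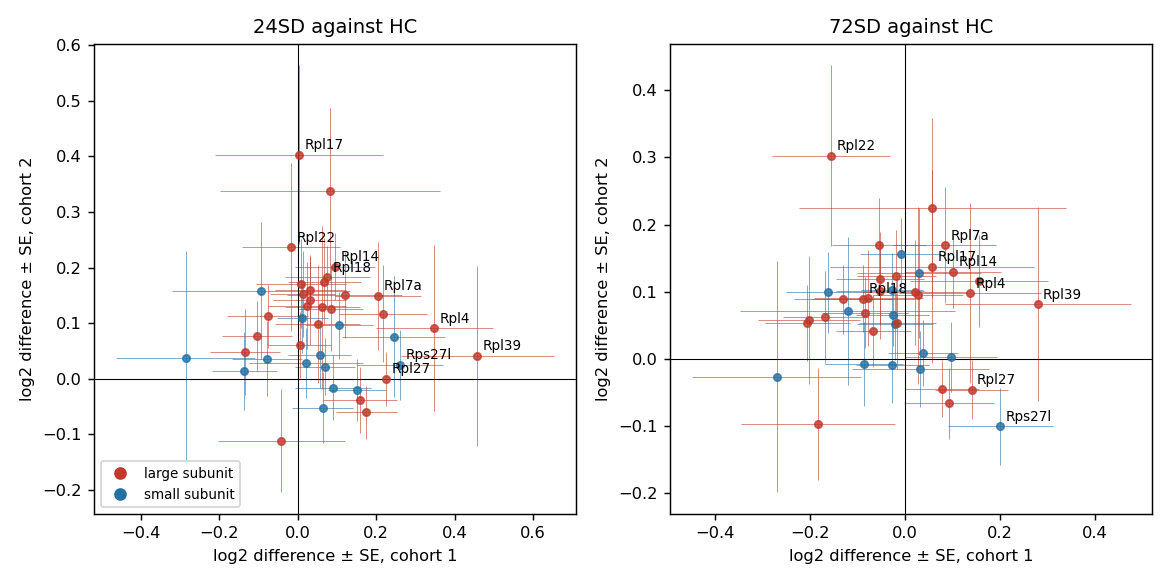
Log2 difference from HC ± SE of each tested member in cohort 1 (horizontal axis) and cohort 2 (vertical axis) after 24 h (left) and 72 h (right), coloured by subunit. At 24 h, 32 of 41 members lie right of 0 and 34 lie above 0, and at 72 h 17 lie right of 0 and 32 lie above 0.

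The levels themselves differed between the cohorts far more than between the groups. Over HC, 24SD and 72SD, cohort 2 was above cohort 1 for 33 of 41 members (50.2% of all genes) with a median of 0.16, and 26 members passed an adjusted p under 0.05, 25 of them higher in cohort 2. That share of 63.4% stood beside 63.1% of all genes, which went about equally in both directions (33.0% higher and 33.8% lower of 66.7% at an unadjusted p of at most 0.05). Rpl35a was higher by 0.52 (adjusted p = 7.19e-14), Rps4x-ps9 by 0.54, Rpl26 by 0.48, Rpl3 by 0.41, Rpl13a by 0.40 and Rpl6 by 0.38. Rps2-ps1 was the 1 member that was lower, by -0.25 (adjusted p = 0.0461). Rpl7a, Rplp0 and Rps27l differed by -0.02, -0.01 and -0.01. The cohorts were separate sets of animals and arrays, and the training and the array background differed with them, so the parts of these cannot be told apart.

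Under NES the members averaged near HC. At 24NES the median difference was 0.0060 for the large and -0.0043 for the small subunit, and 21 of 41 members were above 0 (46.5% of all genes). Rps27l and Rpl4 were higher and Rpl13a and Rps29 lower at an unadjusted p of at most 0.05, 4 of 41 against 15.1% of all genes tested (7.93% as higher and 7.16% as lower), and none passed an adjusted p under 0.05, which 0.445% of all genes did. Rps27l read 10.57, 10.66, 10.62, 10.55 and 10.51 in HC and 10.51, 10.97 and 11.15 as lowest, median and highest of the 10 24NES arrays, a difference of 0.36 ± 0.097 (SE), p = 0.00129 and adjusted p = 0.126. Rpl13a read 13.33, 13.49, 13.77, 13.40 and 13.68 in HC and 13.04, 13.26 and 13.45 in 24NES, a difference of -0.30 ± 0.091, p = 0.00336 and adjusted p = 0.136. The HC and 24NES ranges overlapped for both genes. Rpl4 differed by 0.35 ± 0.12, p = 0.00662, but 1 HC array read 11.94 against 12.62 to 12.73 on the other 4, and without it the difference was 0.21 with p = 0.0507. Rps29 differed by -0.24 ± 0.11, p = 0.0483.

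Rpl14, Rpl18 and Rpl7a were at 0.014 ± 0.13 (SE), -0.24 ± 0.12 and 0.17 ± 0.11 in 24NES, with p of 0.915, 0.0627 and 0.157. The 24NES arrays ran over 10.80, 11.65 and 11.95 for Rpl14, over 11.63, 12.33 and 12.43 for Rpl18 and over 12.96, 13.22 and 13.61 for Rpl7a. The lowest Rpl14 and Rpl18 values came from the same rat. At 72NES the member median was -0.04, with 16 of 41 above 0 (53.7% of all genes), and 4 members were at an unadjusted p of at most 0.05 against 5.97% of all genes (3.26% as higher and 2.71% as lower): Rpl27 at 0.19 ± 0.088, Rpl3l at -0.36 ± 0.16, Rpl35a at -0.29 ± 0.13 and Rpl13a at -0.21 ± 0.1. No gene of the 2697 passed after adjustment. All of these comparisons share the 5 HC arrays of cohort 1, so an HC mean that is high or low for a gene enters each of them.

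The comparison of SD with NES rats of the same duration and cohort does not use the HC mean. At 24 h, 24SD was above 24NES for 32 of 41 members (50.3% of all genes) with a median of 0.04, and 6 members had an unadjusted p of at most 0.05, every one higher in 24SD, against 6.08% of all genes tested (2.63% as higher). Rpl18 differed by 0.31 ± 0.1 (SE), p = 0.00382, Rpsa, also known as the laminin receptor, by 0.19 ± 0.065, p = 0.00564, Rpl13a by 0.19 ± 0.072, p = 0.011, Rpl26 by 0.41 ± 0.16, p = 0.012 (-0.040, p = 0.592, on its second probe set), Rps10 by 0.17 ± 0.075, p = 0.0247, and Rps15 by 0.18 ± 0.084, p = 0.0372. The smallest adjusted p was 0.594. Rpl14 and Rpl7a differed by 0.082 ± 0.1 and 0.039 ± 0.09, with p of 0.435 and 0.671. Without the 24NES array that was far below the others, Rpl26 differed by 0.24, p = 0.012, Rpl18 by 0.25, p = 0.0103, and Rpl14 by -0.0087, p = 0.916. At 72 h the median was 0.01 with 27 of 41 above 0 (45.2% of all genes), and Rpl35a alone passed the unadjusted p, at 0.24 ± 0.11, p = 0.0287, against 7.49% of all genes (4.12% as higher). Rpl19l4, Rpl22, Rpl14 and Rpl23 followed at 0.49 ± 0.29, -0.19 ± 0.11, 0.16 ± 0.12 and -0.17 ± 0.1.

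**Figure D4:**
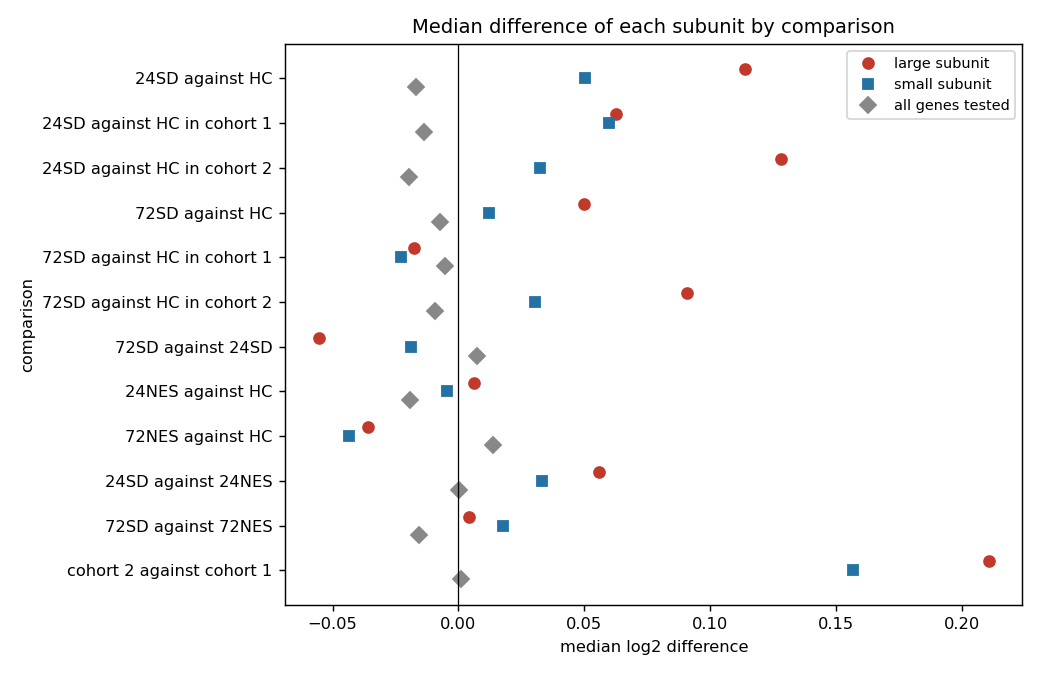
Median log2 difference over the 27 large subunit members, the 14 small subunit members and all 2697 genes tested, in each comparison; medians carry no error bar. The large subunit lies furthest above 0 for cohort 2 against cohort 1 and, among the SD comparisons, for 24SD against HC in cohort 2 (0.13), where the small subunit is at 0.03.

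A mean over the 41 tested members was taken on every array to set them against the 3′ to 5′ ratios of the control probes. In cohort 2 this mean ran over 12.79, 13.01 and 13.11 in HC as lowest, median and highest, over 13.03, 13.09 and 13.11 in 24SD and over 12.91, 13.06 and 13.16 in 72SD. In cohort 1 it ran over 12.81, 12.87 and 12.91 in HC, 12.81, 12.95 and 13.08 in 24SD, 12.79, 12.84 and 12.94 in 72SD, 12.82, 12.86 and 12.95 in 24NES and 12.78, 12.82 and 12.90 in 72NES. The highest HC arrays of cohort 2 reached the highest 24SD arrays, while 8 of the 12 HC arrays lay below the lowest 24SD array. The 3 lowest HC arrays of cohort 2 were also the 3 of that group with a β actin 3′ to 5′ ratio under 1.1.

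With group and cohort means removed, the member mean moved with the β actin ratio over the 69 arrays (r = 0.52, rho = 0.44, and r = 0.57 without the 2 arrays farthest from the median ratio). The correlation was 0.73 over the 32 arrays of cohort 2 and 0.34 over the 37 of cohort 1, and with the GAPDH ratio it was 0.08. These are descriptions over arrays that share a scanner scale. With log2 of the β actin ratio as a term in the fit over HC, 24SD and 72SD, its slope was above 0 for 34 of 41 members (48.1% of all genes), and it passed an adjusted p under 0.05 for 11 members, against 15.9% of all genes, and for 10 of them with a slope above 0 (6.3% of all genes). The slope was steepest in standard errors for Rpl7a, at 0.93 ± 0.11 (SE, adjusted p = 1.04e-07), followed by Rps3, Rpl35a, Rplp0 and Rpl39, and it was negative at that threshold for Rps2-ps1 (-1.16). For Rpl14 and Rpl18 it was 0.26 ± 0.12, adjusted p = 0.125, and 0.11 ± 0.12, adjusted p = 0.583.

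Over both cohorts together, the 24SD median was smaller once this ratio was taken into account, in fits added after the data had been seen. With the ratio as a term, the 24SD median over the members was 0.07, with 34 of 41 above 0 and 3 members at an unadjusted p of at most 0.05 in place of 8 (12.9% of all genes, in place of 19.2%). Those were Rpl18 at 0.14, p = 0.017, Rpl14 at 0.13, p = 0.0198, and Rpl26, while Rpl7a was at 0.065, p = 0.197. Without the 8 arrays of a ratio under 1.1, the 24SD median was 0.07, with 36 above 0 and 6 at that p (14.5% of all genes), and the 72SD median was 0.01 with none at that p (5.78%). In cohort 2 alone the 24SD median was then 0.035, with 2 members at that p in place of 7 (6.41% of all genes, in place of 10.5%). In cohort 1 alone it was 0.12, with 9 in place of 5 (16.0% of all genes, in place of 14.2%) and Rpl27 at an adjusted p of 0.0481. Without those arrays the interaction at 24 h had a median of -0.03 in place of 0.06, but with the ratio as a term it was 0.06. With the term, the 24SD median was 0.037 in cohort 1 alone, with 4 members at an unadjusted p of at most 0.05 (12.9% of all genes). In cohort 2 alone it was 0.048, with 3 members (7.42%). Beyond these fits, the part of RNA quality in the 24SD difference was not tested.

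**Figure D5:**
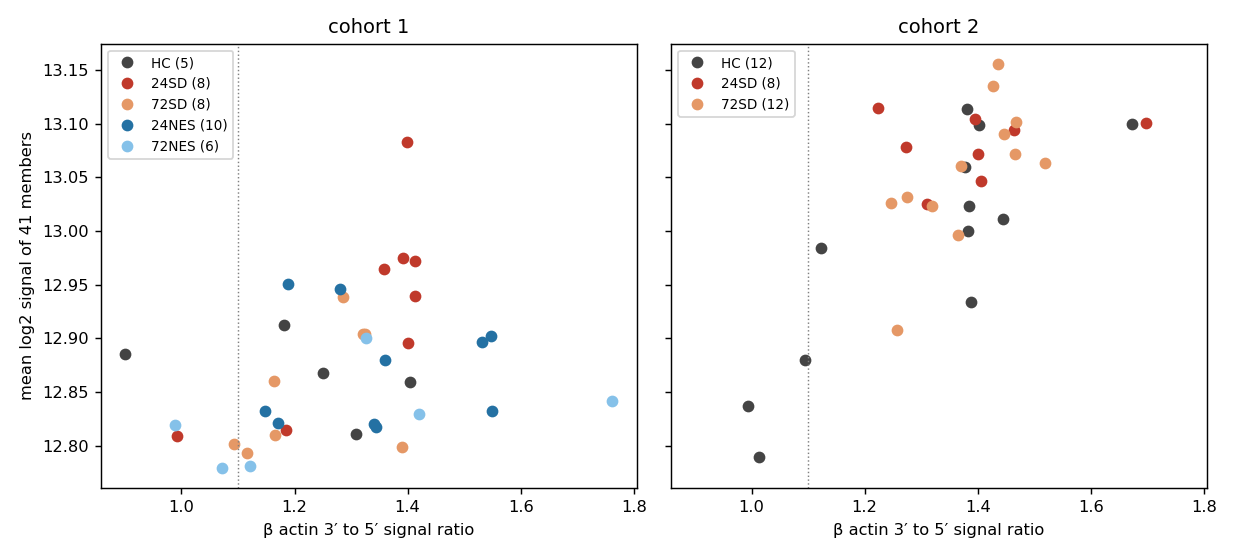
Mean log2 signal of the 41 tested members on each array against the β actin 3′ to 5′ signal ratio, by cohort and group, with a dotted line at a ratio of 1.1. In cohort 2 the 3 arrays left of the line are HC arrays and have the lowest member means (12.79 to 12.88), and in cohort 1 the arrays left of the line come from HC, 24SD, 72SD and 72NES.

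Members varied together only weakly across rats. With group and cohort means removed, the median correlation over the 820 pairs of tested members was 0.11 over the 69 arrays, against -0.00 over all pairs of genes, and it ranged from -0.51 to 0.84. It was 0.11 among large and 0.13 among small subunit members, and 0.11 between them. Rpl35a and Rps23 followed the member mean most closely (r = 0.64 for both), and Rps9 and Rps2-ps1 went against it (-0.11 and -0.44). Outside the members, Id3, a transcription inhibitor, Mbp, the myelin basic protein, Ppp1cb, a phosphatase subunit, Paqr3 and the mitochondrial gene COX2 were most like the member mean, with r of 0.66, 0.65, 0.60, 0.57 and 0.56 over 69 arrays. The arrays of all pairs share the same RNA and scale, and Mbp also moved with the β actin ratio (r = 0.41).

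The other genes of the translation machinery were counted in the same way at 24SD, where 19.2% of all genes passed the unadjusted p. Of 8 tested TOP mRNAs that do not encode ribosomal proteins, 5 were above 0 and 3 below, with Hnrnpa1 at 0.16 and the elongation factor Eef1a1 at 0.14 passing the unadjusted p. Of 18 translation factors, 6 were above 0 and 12 below, with Eef1a1 higher and Eif4ebp1, the mTOR-regulated inhibitor of cap binding, lower at -0.19. Of 12 ribosome biogenesis genes, 8 were above 0 with a median of 0.07, with Top1 at 0.17 and Polr2f at 0.11 passing. At 72SD all 12 were above 0 (46.6% of all genes). Polr1b, an RNA polymerase I subunit, passed there at 0.16, as did 8.49% of all genes. Of 10 genes of mTOR and S6 kinase signalling, 6 were above 0, with Mtor higher at 0.19 and Eif4ebp1 and Akt1 lower at -0.19 and -0.17. The 4 tested proteins of the mitochondrial ribosome were split 2 and 2, with Mrpl23 at 0.17 passing. None of these genes passed after adjustment. At 24NES, 15.1% of all genes had an unadjusted p of at most 0.05 (7.93% as higher, 7.16% as lower). Higher at that p were 2 of the 8 TOP mRNAs, among them Hnrnpa1 at 0.39, and 2 mTOR and S6 kinase genes, Mtor at 0.34 and Rheb at 0.27. Nop58 was the 1 biogenesis gene higher, at 0.46. Lower were 3 of the 18 translation factors, among them Eef1a2 at -0.44 and Eif3d at -0.42.

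Markers of the cell types in the tissue were set beside these values. At 24SD, 45.1% of all genes were above 0 and 19.2% had an unadjusted p of at most 0.05. Of 10 neuronal markers, 9 were below 0, with Snap25 at -0.24 and Nefl at -0.16 lower and Map2 higher at that p. By cohort, 6 of the 10 were above 0 in cohort 1 (median 0.018) and 9 below 0 in cohort 2 (median -0.10). Of all genes, 45.8% were above 0 in cohort 1 and 44.4% in cohort 2. The summed signal of the 10 markers ran from 118708 to 158472 in HC and from 116814 to 132491 in 24SD of cohort 2, and from 149499 to 170462 and from 149240 to 161524 in cohort 1. Of 8 oligodendrocyte markers, 7 were above 0 and none passed, and their sum ran from 68733 to 101115 in HC and from 80051 to 95696 in 24SD of cohort 2. Of 4 dentate granule cell markers, 3 were above 0, with Neurod1 at 0.36 (adjusted p = 0.0412) and Il1rap at 0.29 passing the unadjusted p, and their sum ran from 9173 to 14957 in HC and from 11097 to 15954 in 24SD of cohort 2. The 7 CA1 and 8 astrocyte markers were split 4 and 3, and 4 and 4, with Pou3f1 higher among the former and Aqp4 and Slc1a2 lower among the latter. Microglia (3 tested, 1 above 0 and 2 below, with C1qb higher at that p), blood and vessels (4 tested, split 2 and 2) and choroid plexus (2 tested, both above 0) had few markers above the filter. Of the 3 microglial markers, 2 were below 0 in cohort 1 (median -0.14), with 1 lower at an unadjusted p of at most 0.05 (14.2% of all genes). That marker also passed an adjusted p under 0.05, for which the share of all genes is not given here. All 3 were above 0 in cohort 2 (median 0.11), with none at an unadjusted p of at most 0.05. The 4 blood and vessel markers were all below 0 in cohort 1 (median -0.24), with 2 at an unadjusted p of at most 0.05 (14.2% of all genes). In cohort 2 all 4 were above 0 (median 0.17), with 1 at that p (10.5% of all genes). In the interaction 2 of them passed that p (8.57% of all genes), with a median of 0.41. A single 24SD array of cohort 2 had a choroid plexus sum of 26670 against a group median of 1701. Without that array the 24SD median over the members was 0.10, with 37 of 41 above 0. At an unadjusted p of at most 0.05 there were then 8 members, against 17.1% of all genes. The part of these cell type differences in the ribosomal protein values was not tested.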

How the data were processed

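The deposited values were MAS5 signal intensities of 8799 probe sets on 69 arrays, which the authors had scaled on each array to a common trimmed mean in GCOS, without further normalisation. Genome build and tool versions beyond MAS5 are not given in the sources used here. Intensities under 1 were set to 1 and log2 was taken. Of 8799 probe sets, 7018 had 1 gene symbol, 308 several and 1473 none, from the platform annotation. The brightest probe set per gene was kept, and genes in the upper 50% of mean log2 signal were tested, 2697 in all.

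The tests were limma's moderated ones (lmFit, then eBayes; version 3.58.1 under R 4.3.3), with Benjamini-Hochberg adjusted p-values over the 2697 genes and a threshold of 0.05. SD comparisons used the 53 HC, 24SD and 72SD arrays with cohort as a term, each cohort alone (21 and 32 arrays) or the interaction. NES against HC used 21 arrays and SD against NES the 37 of cohort 1. In place of the methods' ANOVA on signals standardised within cohort, this model was the main one and the ANOVA an alternative. The other alternatives were quantile normalisation, median centring, a floor of 50, no filter or the upper 40%, second probe sets, robust eBayes, cohort left out, single arrays left out and means for medians. The β actin ratio as a term, arrays under a ratio of 1.1 left out and 24NES array 58 or 24SD array 32 left out were added after seeing the data. The members and lists were chosen with earlier results of these data known.

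Genes named were Rpl14, Rpl18 and Rpl7a, members the paper names, members with an adjusted p under 0.05 in any comparison (given by count and the largest), those with the 5 smallest p in SD or NES against HC or SD against NES, the 3 brightest and 3 dimmest, suffixed paralogs, up to 4 of each other list by the smallest p at 24SD, and the 5 genes most like the member mean. The number of arrays limits the precision. Scripts were tested on simulated data. Figures were drawn with matplotlib 3.10.9.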

Additional observations from a re-analysis of the deposited data

Results flagged for a closer look

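Dixon's test was run 84 times, for each of 14 member measures in each group of 4 to 10 arrays. In 10 of these tests 1 array lay far from the others. Chance gives about 1 in 20 for a single test, but the measures share the same arrays, so the tests are not independent. On 24NES array 58 the signal was 10.80 for Rpl14 (others 11.55 to 11.95), 12.18 for Rpl26 (13.71 to 14.09), 12.19 for Rpl35a (12.56 to 12.87) and 13.50 for Rpl24 (13.85 to 14.20), all on the log2 scale. Its β actin and GAPDH ratios were 1.34 and 1.02, inside the range of the other arrays, and its mean log2 signal over all genes tested, 10.76, was the lowest of the 69 arrays (the next was 10.86).

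The remaining far arrays each concerned 1 member. On 24NES array 60, Rpsa read 12.77 (others 13.03 to 13.28). In cohort 1, Rpl14 read 11.22 on 24SD array 24 (11.58 to 11.87), Rps15 read 14.05 on 24SD array 18 (13.53 to 13.77), Rpl13a read 13.08 on 72NES array 70 (13.31 to 13.41) and Rpl4 read 11.94 on HC array 3 (12.62 to 12.73). In cohort 2, Rpl18 read 12.51 on 24SD array 31 (12.74 to 12.88).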

How the results depend on the processing

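Of 1598 values recomputed under an alternative, 1536 were labelled the same, 53 moved and 9 turned direction. Single genes were labelled by direction and side of the threshold, and counts by a ratio of at most 1.5. A median was labelled the same within 0.070, and a subunit contrast within 0.074, 1 SD between arrays of a group and cohort. That label disregards sign. The 24NES member median, for example, was -0.018 without HC array 1 and 0.0084 without HC array 3. The width of 0.070 is also above the 72SD median of 0.03. A 24SD median of 0.05 with cohort left out, in place of 0.10, was labelled the same. In the main SD and NES fits no member passed the adjusted threshold, so most single genes could change label only by turning direction. The number labelled the same is therefore not a measure of stability. Where no cause is given below, the cause was not tested. No member passed an adjusted p under 0.05 in an SD or NES comparison, with 2 exceptions. These were Rpl14 in the methods' ANOVA with values over 2 SD removed (adjusted p = 0.0248; 4.19% of all genes) and Rpl27 at 24SD of cohort 1 without the arrays of a low β actin ratio (adjusted p = 0.0481).

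The count of 8 members at an unadjusted p of at most 0.05 for 24SD was 19 with each array centred on its median (18.2% of all genes, 11.9% as higher). It was 1 with cohort left out (8.97% of all genes) and 3 with the β actin ratio as a term (12.9%). Centring moved the median of all genes at 24SD from -0.02 to 0.02. The count of 3 for 72SD was 1 with cohort left out (4.15% of all genes) and 0 without the low-ratio arrays (5.78%). The count of 5 in the joint test was 10 with centring (12.2% of all genes), 8 in the ANOVA with removal (21.7%), 5 in the ANOVA without (13.2%) and 2 with the ratio as a term (9.27%). With each HC array of cohort 1 left out in turn, that joint count was between 3 (without HC array 2) and 7 (10.5% to 12.5% of all genes). The 24SD count was between 7 and 10 (16.9% to 19.6%) and the 72SD count between 2 and 4 (7.23% to 9.27%). The 24SD interaction median was -0.034 without the low-ratio arrays and 0.060 with the ratio as a term.

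Some values turned direction. Rpl14 at 24NES was -0.025 with the ratio as a term, and against 24SD -0.0087 as 24SD minus 24NES without array 58. With single arrays left out, Rpl14 at 24SD against 24NES lay between that value and 0.082, Rpl7a at 72NES between -0.023 (without HC array 3) and 0.14, and Rpl7a at 72SD against 72NES between -0.055 (without 72NES array 71) and 0.0012. Without the low-ratio arrays, Rpl7a at 72NES was -0.12 and Rpl18 at 72SD against 72NES was -0.028. On second probe sets, Rps15 at 72SD was -0.11 and Rpl26 at 24SD against 24NES -0.040, where the chosen probe sets (0.096 and 0.41) had passed the unadjusted p, and Rpl23 at 72SD against 72NES was 0.028. No paired analysis was possible because each rat has its own number, so groups share no replicate numbers. Leaving out single arrays was run for the HC arrays of cohort 1 and the arrays named here.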
